A study of Homo sapiens with 2 samples.

Results

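The collagen chain genes encode the alpha chains that fold in threes into the collagen triple helix. They were taken here as the protein-coding RefSeq genes whose symbol is COL, a number, A and a number, which gives 44 of the 20037 protein-coding genes on the chromosomes of GRCh38. By the structures their proteins build, 11 of the 44 are fibrillar chains, 6 are the type IV chains of basement membranes and 27 belong to other types. The fibrillar chains form the banded fibrils of skin, bone, tendon and cartilage, and type IV chains form the sheet-like network under epithelia, including the alveolar epithelium of the lung. The other types decorate fibrils, build beaded filaments, short-chain networks or anchoring fibrils, or sit in the plasma membrane. ETV4 is a transcription factor of the PEA3 group of the ETS family, whose members recognise DNA with the core GGAA, and it is best known in tumours for its targets among proteases that degrade the extracellular matrix.

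The data were 1 anti-Flag chromatin immunoprecipitate and 1 input library from A549, an established human non-small cell lung cancer line of epithelial origin. According to the study, both ETV4 shRNA and a transfected plasmid for Flag-tagged ETV4 were present in the cells, so the peaks report the tagged, re-expressed protein and not the endogenous one. The sample labels name a Flag antibody from Sigma, whereas the study's methods name one from CST. No replicate, no untagged cells and no cells without the shRNA were analysed, so no spread between samples and no test between conditions can be given, and a peak list holds no markers by which the cell line could be checked.

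The authors' peak list held 54389 intervals with a fold enrichment over the control of up to 327 and a median of 9.63. The number of fragments stacked at each summit, the pileup, was solved from the list and ran from 6 to 7664 with a median of 26. Its 95% exact Poisson interval, given in parentheses, covers counting error only. At 2 intervals in ETV4 itself the control level was 412 and 313 fragments, whereas at the 153 peaks within 10 kb of a collagen gene it did not exceed 5.40. The RefSeq promoter table used here lists a start and strand for 32 of the 44 genes. For the others, COL1A1, COL1A2, COL2A1, COL3A1, COL5A2, COL6A1, COL6A5, COL8A1, COL9A3, COL14A1, COL20A1 and COL22A1, the ends are called the lower and the higher end by coordinate.

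Some of the DNA on which these results turn is printed first, 5′ to 3′ on the strand of the named gene, from RefSeq on GRCh38.p14. Each stretch ends at the base before the listed start and was kept outside every protein-coding gene, and capitals mark GGAA or its reverse complement TTCC. The first 4 lay under a start peak, and they are shown because their genes had 4 of the 6 highest folds at a start. COL4A3 lies under the peak that the divergent COL4A3 and COL4A4 share, with 1 copy of the core. COL4A2 is the whole gap between the divergent COL4A1 and COL4A2, which had no peak and no copy. COL4A5, with 8 copies of the core, and COL5A1, with 4, had no peak at their starts either.
COL12A1, chr6:75206054-75206303, minus strand: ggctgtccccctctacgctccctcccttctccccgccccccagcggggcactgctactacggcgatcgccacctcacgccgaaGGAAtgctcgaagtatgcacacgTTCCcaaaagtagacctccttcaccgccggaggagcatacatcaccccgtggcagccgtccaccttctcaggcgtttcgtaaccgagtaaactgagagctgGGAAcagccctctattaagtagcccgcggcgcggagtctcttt
COL6A2, chr21:46097862-46098111, plus strand: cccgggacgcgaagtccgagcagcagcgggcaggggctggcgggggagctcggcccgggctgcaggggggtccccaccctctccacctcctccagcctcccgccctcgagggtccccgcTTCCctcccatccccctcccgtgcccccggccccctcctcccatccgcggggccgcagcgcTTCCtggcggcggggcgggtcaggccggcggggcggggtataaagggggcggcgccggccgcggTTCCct
COL18A1, chr21:45404915-45405164, plus strand: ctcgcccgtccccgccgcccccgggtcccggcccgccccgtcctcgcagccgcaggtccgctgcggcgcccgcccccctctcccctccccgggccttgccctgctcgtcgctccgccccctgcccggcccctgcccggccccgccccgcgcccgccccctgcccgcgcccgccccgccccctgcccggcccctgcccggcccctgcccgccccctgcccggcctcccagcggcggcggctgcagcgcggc
COL13A1, chr10:69801656-69801905, plus strand: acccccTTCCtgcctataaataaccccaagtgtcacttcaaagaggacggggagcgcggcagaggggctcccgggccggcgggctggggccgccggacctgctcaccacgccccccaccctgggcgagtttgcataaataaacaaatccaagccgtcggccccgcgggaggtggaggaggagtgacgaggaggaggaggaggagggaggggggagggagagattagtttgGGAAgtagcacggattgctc
COL4A3, chr2:227164489-227164623, plus strand: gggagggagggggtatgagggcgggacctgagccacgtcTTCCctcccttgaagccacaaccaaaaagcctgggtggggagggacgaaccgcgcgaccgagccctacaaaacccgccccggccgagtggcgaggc
COL4A2, chr13:110307158-110307283, plus strand: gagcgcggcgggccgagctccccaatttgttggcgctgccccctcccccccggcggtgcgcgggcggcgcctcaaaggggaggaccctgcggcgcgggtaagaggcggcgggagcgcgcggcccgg
COL4A5, chrX:108439588-108439837, plus strand: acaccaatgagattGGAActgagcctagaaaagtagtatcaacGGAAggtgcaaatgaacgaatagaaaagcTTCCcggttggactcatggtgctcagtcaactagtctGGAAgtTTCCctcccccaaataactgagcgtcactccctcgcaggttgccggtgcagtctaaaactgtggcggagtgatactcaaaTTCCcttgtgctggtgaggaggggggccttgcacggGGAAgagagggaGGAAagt
COL5A1, chr9:134641553-134641802, plus strand: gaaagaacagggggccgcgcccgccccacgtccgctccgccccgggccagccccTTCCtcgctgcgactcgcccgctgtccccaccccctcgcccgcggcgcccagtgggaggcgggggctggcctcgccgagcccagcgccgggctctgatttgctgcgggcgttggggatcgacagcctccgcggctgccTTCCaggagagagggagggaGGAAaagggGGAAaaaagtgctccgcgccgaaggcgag

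Flag-ETV4 peaks lay near most collagen chain genes, but inside the genes more often than at their starts. A peak lay within 10 kb of 38 of the 44 genes, or 86.4%, against 81.6% of all protein-coding genes, and a peak with a fold of 10 or more lay within 10 kb of 32 of them, or 72.7%, against 65.4%. The 6 genes without a peak were COL1A2, COL11A1, COL4A5, COL9A1, COL9A2 and COL10A1. At a listed start, within 1 kb, 12 of 32 collagen genes had a peak, or 37.5%, against 64.4% of the 15843 protein-coding genes with a listed start. Away from both ends and every listed start, 32 of 44 had a peak inside the gene, or 72.7%, against 35.1%. Of the 32 genes with a listed start, 14 had a peak inside and none at the start, or 43.8%, against 10.2%. Counted at either end of the span, so that all 44 could enter, 17 genes had a peak, or 38.6%, against 62.1%. These shares are descriptions of 1 library, since genes are not replicates of a condition.

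Without regard to gene length, the strongest peak near a collagen gene was about as strong as that near other genes. Over the 38 genes with a peak, the median of the highest fold was 22.7, with a range from 3.87 to 123. Over all protein-coding genes it was 22.3. Among genes of similar length the collagen median was lower, at 13.2 against 20.2 below 30 kb and 22 against 22.6 at 30 to 100 kb. It was 22.8 against 27 at 100 to 300 kb and 31.1 against 35.2 above 300 kb. These collagen medians rest on 4, 10, 17 and 7 genes with a peak, and the differences were not tested. A start peak with a fold of 10 or more was found at 8 of 32 genes, or 25.0%, against 47.0% of all protein-coding genes with a listed start.

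**Figure D1:**
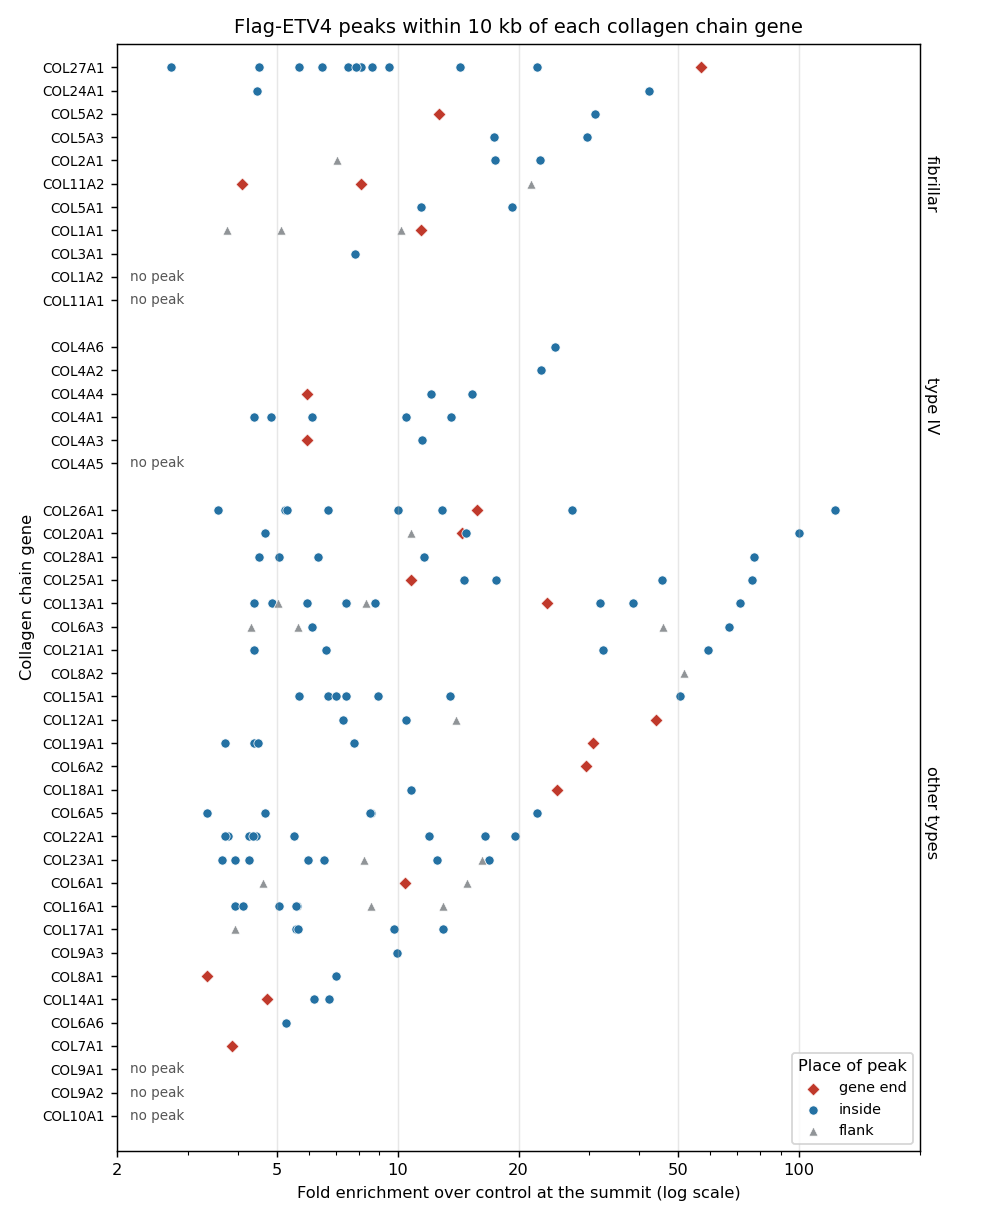
Fold enrichment of every Flag-ETV4 peak within 10 kb of each of the 44 collagen chain genes, 1 row per gene and 1 symbol per peak, on a log axis. The genes are grouped as fibrillar, type IV and other types, and the 6 genes with no peak are marked. The symbols of peaks inside genes outnumber those at gene ends, and 8 of the 10 peaks with a fold of 50 or more are inside genes of the other types.

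The collagen genes are long, and a long gene has more room for a peak. The median span was 145 kb, against 24.1 kb for all protein-coding genes. Within bins of length the difference inside the genes narrowed, whereas that at the start did not. Among genes of 100 to 300 kb, 17 of 19 collagen genes had a peak inside, or 89.5%, against 71.2% of all protein-coding genes of that length, and 7 of 16 had one at a listed start, or 43.8%, against 75.4%. Among genes of 30 to 100 kb, 7 of 13 had a peak inside, or 53.8%, against 45.6%, and 3 of 9 had one at the start, or 33.3%, against 73.4%. All 7 collagen genes over 300 kb had a peak inside, against 92.5%, and 2 of 5 had one at the start, or 40.0%, against 66.2%. Below 30 kb, 1 of 5 had a peak inside, against 17.6%. Neither of the 2 with a listed start, COL8A2 and COL9A2, had one at the start, against 56.9%. A peak inside and none at the start was found at 44.4% against 12.2% of started genes of 30 to 100 kb. That share was 43.8% against 18.3% at 100 to 300 kb and 60% against 30.2% above 300 kb. Below 30 kb it was found at neither of the 2 collagen genes, against 5.79%. The number of peaks that touched the genes was 1.84 per 100 kb of collagen gene, with a 95% exact Poisson interval from 1.53 to 2.19, and 2.56 per 100 kb over all protein-coding genes. Both counts take a peak that touches more than one gene once for each. In 3 of the 4 bins the densities lay close together, at 3.09 against 3.17 per 100 kb for genes of 30 to 100 kb, 2.07 against 2 for genes of 100 to 300 kb and 1.23 against 1.24 above 300 kb. Below 30 kb the collagen genes had fewer, with 1.78 per 100 kb (0.215 to 6.42) against 7.45, from 2 peaks in 5 genes. The share of genes with any peak within 10 kb also turned at matched length in both middle bins, which hold 32 of the 44 genes. It was 76.9% against 89% at 30 to 100 kb and 89.5% against 94.7% at 100 to 300 kb. For a fold of 10 or more the shares were 61.5% against 72.1% and 73.7% against 82.5%. Below 30 kb the share with any peak was 80% against 74%, and above 300 kb all 7 collagen genes had one, against 97%.

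**Figure D2:**
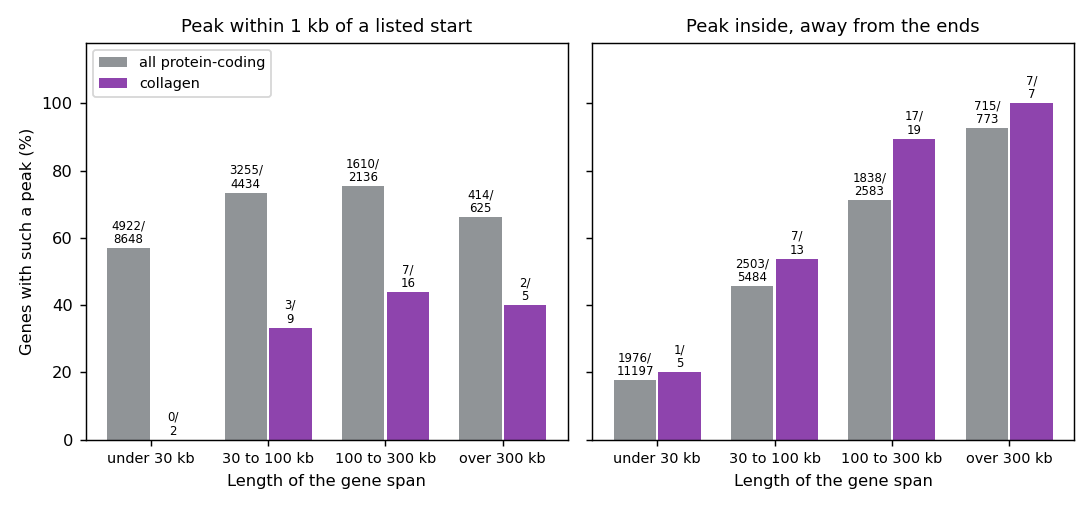
Share of genes, in percent, with a peak within 1 kb of a listed start and with a peak inside the gene away from the ends, for collagen chain genes and all protein-coding genes in 4 bins of gene length, with the bars starting at 0. At the start the collagen bars are lower in every bin, for example 43.8% against 75.4% at 100 to 300 kb, whereas inside the gene they are near or above those of all genes.

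By place, 115 of the 153 peaks, or 75.2%, lay inside a collagen gene, 18 lay at an end and 20 in the 10 kb on either side. Of the 36695 peaks within 10 kb of any protein-coding gene, 53.5% lay inside and 33.4% at an end, where a peak near several genes was counted at an end if it lay at an end of any of them. For the collagen peaks only ends and listed starts of collagen genes counted. A collagen peak at an end of another gene could thus count as inside or beside the collagen gene. These shares were not matched for gene length. The median fold was 12 for the collagen peaks at an end and 7.80 for those inside, and over all protein-coding genes these medians were 15.4 and 8.22. Over all 153 peaks the median was 8.32, and 67 of them, or 43.8%, had a fold of 10 or more, against 48.5% of the whole list. At the upper end, 10 of the 153, or 6.54%, reached a fold of 50, against 6.06% of the whole list.

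Among the 11 fibrillar genes, 9 had a peak within 10 kb, or 81.8%, 7 had one inside and 2 of the 6 with a listed start had one there. A fold of 10 or more was reached near 8 of the 11, and the median of the highest fold was 22.6. Over all protein-coding genes, not matched for length, 81.6% had a peak within 10 kb and 35.1% had one inside. Of those with a listed start, 64.4% had one there. A fold of 10 or more was reached near 65.4%, and the median of the highest fold was 22.3. The fibrillar peaks numbered 31, and their median fold was 9.54. The chains of type I, the main fibril of bone, skin and tendon, differed from each other in this list. COL1A1 had 4 peaks, and its strongest, at chr17:50200674-50201434 with a fold of 11.4 and a pileup of 52 fragments (38.8 to 68.2), had its summit 454 bp inside the higher end. The other 3 lay beyond that end with folds of 3.75, 10.2 and 5.12. COL1A2, which encodes the partner chain of the same triple helix, had none, and the nearest peak lay 24.6 kb away.

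COL2A1, the chain of cartilage fibrils, had 2 peaks inside with folds of 22.6 and 17.5, whose summits were 1.89 and 4.46 kb from the higher end. Beyond that end it had a weaker one with a fold of 7.07, 756 bp from an end of LOC105369750. COL3A1, the type III chain of vessel walls and skin, had a single peak inside with a fold of 7.81 and a pileup of 20 fragments. Among the fibrillar genes with a peak, no other had so low a maximum.

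The type V chains set the diameter of type I fibrils. COL5A1 had no peak at its 2 listed starts and 2 peaks inside. The nearer, at chr9:134645664-134646821, had a fold of 19.3 and its summit 4.12 kb past the nearest start, and the other had a fold of 11.4 at 70.1 kb. COL5A2 had a peak with a fold of 31.1 inside, 21.0 kb from its higher end, and one with a fold of 12.7 over that end, whose summit was also 109 bp from an end of WDR75. COL5A3 had 2 peaks inside with folds of 29.6 and 17.4, at 11.4 and 47.5 kb from the start, and none at the start. The type V genes thus had their strongest peaks inside, with folds from 19.3 to 31.1.

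COL11A1, a minor chain of cartilage fibrils, had no peak within 10 kb, and the nearest lay 279 kb away with a fold of 3.37. COL11A2 had a weak peak over its start, at chr6:33193078-33193312, with a fold of 4.09 and a pileup of only 10 fragments (4.80 to 18.4). Its peak at the other end had a fold of 8.12 and the highest control level of all collagen peaks, 5.40. The strongest peak within 10 kb, with a fold of 21.5, overlapped RXRB and SLC39A7 and had its summit 562 bp from an end of RXRB.

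COL24A1 and COL27A1 encode fibrillar chains whose triple helix is shorter and interrupted. COL24A1 had the strongest interior peak of the fibrillar class, at chr1:85858320-85859074, with a fold of 42.3 and a pileup of 99 fragments (80.5 to 121), 298 kb from the nearest listed start. Its other peak had a fold of 4.46. COL27A1 had the strongest start peak of all collagen genes. It spanned chr9:114154784-114156757, with a fold of 56.9, a pileup of 129 fragments (108 to 153) over a control level of 1.28, and its summit 15 bp inside the listed start. COL27A1 also had 11 peaks inside with folds from 2.72 to 22.3, and 6 of their summits lay within 12.9 kb in the 3′ part of the gene.

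The type IV genes stand in 3 head-to-head pairs, each with a shared stretch of DNA between the starts. A peak within 10 kb was found for 5 of the 6, or 83.3%, and all 5 had one inside and one with a fold of 10 or more. Of all protein-coding genes of 100 to 300 kb, the bin that holds all 6, 94.7% had a peak within 10 kb. In that bin 71.2% had one inside and 82.5% had one with a fold of 10 or more. The median of the highest fold was 15.3 for the type IV genes and 27 for that bin. The class had 11 peaks with a median fold of 11.5, and none reached a fold of 25. With the peak shared by COL4A3 and COL4A4 counted once, it had 0.878 peaks per 100 kb of gene (0.438 to 1.57). Counted once for each gene, the density was 0.958, against 2 for all protein-coding genes of 100 to 300 kb, the bin that holds all 6, and 1.53 (0.988 to 2.25) and 2.24 (1.80 to 2.75) in the fibrillar and other classes at their own lengths.

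COL4A1 and COL4A2, which encode the chains of nearly all basement membranes, start 126 bases apart. No peak touched that gap, and the nearest lay 12.2 kb away inside COL4A2, at chr13:110319455-110320190, with a fold of 22.8 and a pileup of 51 fragments (38 to 67.1). COL4A2 had no other peak. COL4A1 had 5 peaks inside with folds of 13.6, 10.5, 6.13, 4.82 and 4.38, all over 50 kb from its start. The peaks of 13.6 and 4.38 overlapped LOC124903212, and the summit of the former was 200 bp from an end of it.

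COL4A3 and COL4A4, chains of the glomerular and alveolar basement membranes, start 418 bases apart. This was the 1 pair with a peak between its starts. The peak, at chr2:227163926-227165147, covered both starts and was weak, with a fold of 5.95 and a pileup of 17 fragments (9.90 to 27.2). Inside the genes the folds were higher, with 11.5 in COL4A3 and 15.3 and 12.1 in COL4A4. The peak of 15.3 also overlapped RHBDD1. COL4A5 and COL4A6 start 379 bases apart on chromosome X, and no peak lay within 10 kb of that gap. COL4A5 had none within 10 kb at all, the nearest being 38.2 kb away. COL4A6 had 1, at chrX:108186925-108187409, with a fold of 24.7 and a pileup of 57 fragments (43.2 to 73.9), 251 kb from its nearest listed start. That fold led the class.

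**Figure D3:**
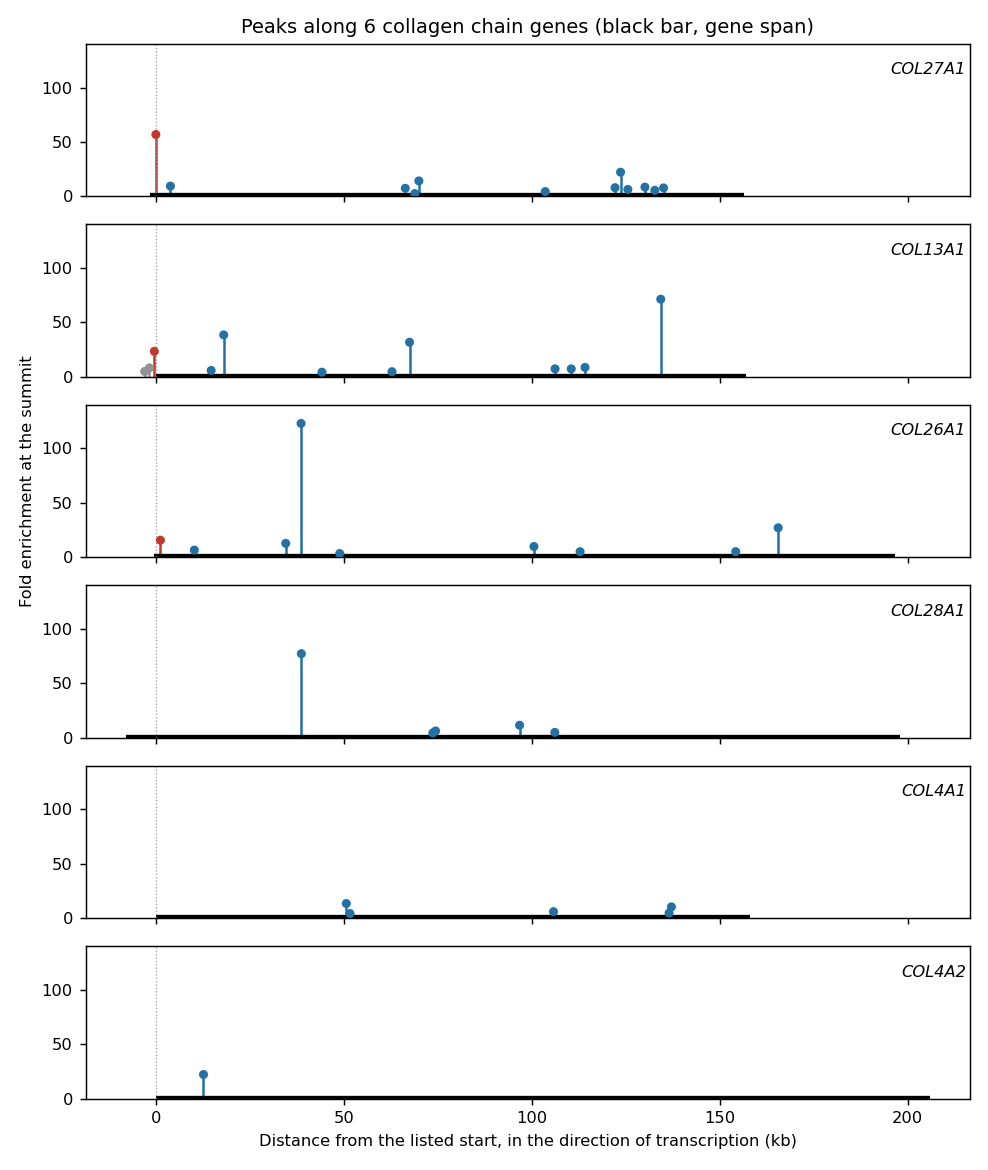
Fold enrichment at the summit of each peak against its distance from the listed start in kb, in the direction of transcription, for 6 collagen chain genes, with the gene span as a black bar and the start at 0. Red marks a peak at an end, blue one inside and grey one outside. COL27A1 is highest at its start, with a fold of 56.9, COL13A1, COL26A1 and COL28A1 are highest inside at 71.4, 123 and 77.3, and COL4A1 and COL4A2 have nothing at the start.

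Of the 27 genes of other types, 24 had a peak within 10 kb, or 88.9%, 20 had one inside and 8 of the 20 with a listed start, or 40%, had one there. The same shares over all protein-coding genes, not matched for length, were 81.6%, 35.1% and 64.4%. A fold of 10 or more was reached near 19 of the 27, or 70.4%, against 65.4%, and the median of the highest fold was 27.2, against 22.3. The other types held 111 of the 153 peaks. Their median fold, 7.44, was the lowest of the 3 classes. A fold of 50 or more was reached by 9 of the 111, or 8.11%, by 1 of the 31 fibrillar peaks, or 3.23%, and by none of the 11 type IV peaks. The share over the whole list was 6.06%. At a fold of 20 or more the other types, at 18.9%, lay below the fibrillar peaks, at 22.6%. They lay close to the type IV peaks, at 18.2%, which rests on 2 of 11. All 3 classes lay below the whole list there, at 25.4%.

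The FACIT genes encode chains with interrupted helices that bind to the surface of fibrils, and 8 of 10 had a peak. COL12A1, a type XII chain of tendon and of tumour stroma, had the second highest start peak of all collagen genes. It spanned chr6:75204446-75206535 with a fold of 44.0, a pileup of 132 fragments (110 to 157) and its summit 93 bp inside the start. A further one with a fold of 14.0 lay 2.81 kb before the start and 2 weaker ones, at 10.5 and 7.30, inside. COL19A1 had a start peak with a fold of 30.6 and a pileup of 102 fragments (83.2 to 124), 814 bp inside the gene, and its 4 interior peaks did not exceed 7.80.

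COL20A1 had one of the strongest interior peaks, at chr20:63326626-63327481, with a fold of 99.8 and a pileup of 301 fragments (268 to 337), 7.75 kb from the higher end. At that end itself it had one with a fold of 14.5. COL21A1 had peaks with folds of 59.3 and 32.5 inside, 13.2 and 70.6 kb from the nearest of its 3 listed starts, and none at them. COL22A1 had 9 peaks, all inside, with folds from 3.71 to 19.6. COL14A1 had 3 weak ones, the highest at 6.73 inside and one at 4.73 over the lower end.

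COL16A1 had 7 peaks, and the strongest, with a fold of 13.0, lay past its 3′ end and 197 bp from an end of PEF1. Its 5 interior peaks were at 5.62 or less. The type IX chains, which coat the type II fibrils of cartilage, were nearly free of peaks. COL9A1 and COL9A2 had none, the nearest being 42.6 and 29.6 kb away, and COL9A3 had 1 inside with a fold of 9.98.

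The type VI genes encode chains of the beaded filaments around cells, and all 5 had a peak. COL6A2 had a single one, over its start at chr21:46097665-46099148, with a fold of 29.4, a pileup of 68 fragments (52.8 to 86.2) and its summit 233 bp before the start. COL6A1 had none inside and 3 near its lower end, of which the one within 1 kb had a fold of 10.4 and the strongest, 4.62 kb out, had 14.9. The summit of the strongest was 198 bp from an end of LOC105372841. COL6A3 had no peak at its start but strong ones on both sides of it. The one inside, at chr2:237396684-237397689, had a fold of 67.0 and a pileup of 152 fragments (129 to 178), 16.9 kb from the start, and the one 7.56 kb before the start had a fold of 45.8. COL6A5 had 5 interior peaks, the highest with a fold of 22.3, and COL6A6 had 1 at 5.26 with a pileup of 11 fragments.

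The short-chain types VIII and X build hexagonal networks in vessel walls, the cornea and growth plate cartilage. COL10A1 had no peak, and the nearest lay 17.6 kb away. COL8A1 had a peak with a fold of 7.01 inside and one of 3.35, with a pileup of 8 fragments, at its lower end, the lowest end value of all collagen genes. The only peak of COL8A2 had a fold of 51.8, but it lay 6.36 kb past the 3′ end and 13 bp from an end of ADPRS. COL7A1, whose protein forms the anchoring fibrils below the epidermis, had 1 peak with a fold of 3.87 and a pileup of 12 fragments (6.2 to 21), 385 bp before its start. No other start peak was lower.

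The transmembrane collagens span the plasma membrane, and all 4 genes had peaks inside. COL13A1, found at cell adhesion sites and neuromuscular junctions, had 12 peaks. The start peak had a fold of 23.5 and a pileup of 70 fragments (54.6 to 88.4). The strongest, at chr10:69935534-69936489, had a fold of 71.4 and a pileup of 162 fragments (138 to 189), 134 kb from the start, and 2 more inside had folds of 38.6 and 31.9. COL25A1, a chain first isolated from amyloid plaques, had a start peak with a fold of 10.8. Its interior peak at chr4:108868392-108869185 had a fold of 76.3 and a pileup of 204 fragments (177 to 234), 434 kb from the start, and the next had a fold of 45.6.

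COL17A1, the hemidesmosome collagen of basal epithelial cells, had no start peak and 4 peaks inside with folds from 5.57 to 13.0, all within 5.64 kb. COL23A1 had 9 peaks, with folds of 16.9 and 12.5 as the highest inside and 16.2 for one past the 3′ end whose summit lay at an end of PHYKPL. It had none at its start.

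The multiplexins, types XV and XVIII, are proteoglycan collagens of basement membrane zones, and endostatin is cleaved from the latter. COL18A1 had a start peak with a fold of 25.0, a pileup of 56 fragments (42.3 to 72.7) and its summit 307 bp before the nearest listed start, and 1 interior peak at 10.8. COL15A1 had the opposite layout, with none at the start and 7 inside. The strongest of these, at chr9:98950089-98950845, had a fold of 50.6 and a pileup of 135 fragments (113 to 160), 6.5 kb past the start.

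COL26A1 had the strongest peak of any collagen gene. It spanned chr7:101401103-101403057, with a fold of 123, which 99.6% of all listed peaks did not exceed, a pileup of 361 fragments (325 to 400) over a control level of 1.93, and its summit 38.6 kb from the start. Its start peak, with the summit 1.23 kb inside, had a fold of 15.8, and 7 further interior peaks ran from 3.57 to 27.2. COL28A1, whose chain carries von Willebrand factor A domains, had a peak at chr7:7496789-7497492 with a fold of 77.3 and a pileup of 285 fragments (253 to 320), 38.7 kb from its listed start, and 4 others at 11.6 or less. It had none at the start.

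Peaks also crowded together inside a few genes. In 5 of the 44, or 11.4%, at least 4 summits lay within 15 kb of each other inside the span, against 2.74% of all protein-coding genes. They were COL27A1 with 6 summits in 12.9 kb, COL16A1 with 5 in 11.4 kb, COL17A1 with 4 in 5.64 kb, COL22A1 with 4 in 8.73 kb and COL6A5 with 4 in 13.8 kb. The window of 15 kb and the limit of 4 summits were chosen after these genes had been seen, and longer genes have more windows. Most peaks in these stretches were modest, and in COL16A1 none passed a fold of 5.62. Among the 19 collagen genes of 100 to 300 kb, COL27A1 and COL13A1 each had 12 peaks within 10 kb. These 2 were 10.5%, against 3.68% of all protein-coding genes of that length with 12 or more. The limit of 12 was not planned and equals the highest count of any collagen gene, so it was not independent of these 2. Above 300 kb none of the 7 collagen genes had 12 or more, against 19% of all protein-coding genes.

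The sequences at the starts were compared over 300 bases, 250 before and 50 after each gene's outermost listed start. The ETS site CCGGAAG, on either strand, was in none of the 32 collagen promoters, 20 of which had no start peak. It was in 14.2% of all 15843 promoters, in 20% of those with a peak at that start and in 4.52% of those without one. The variant CAGGAAG, which differs from it in 1 base so that a given core can belong to only one of them, was in those of COL13A1 and COL6A2, or 6.25%, against 12.4%. Both of these genes had a start peak. Over all protein-coding genes, however, the variant was in 11.8% of promoters with a start peak and 13.5% of those without one. In the stretches printed above, the matches of COL13A1 and COL6A2 appear on the reverse strand as a run of C, TTCC and TG. The bare core GGAA, which is part of both sites, was in 30 of the 32, or 93.8%, against 95.2%. The promoters without it were those of COL11A1, which had no peak, and COL18A1, whose start peak had a fold of 25.0.

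The promoters of collagen genes without a start peak varied widely in composition. Their median G + C content was 66.3% over 20 genes, with a range from 32.3% to 82%, and that of the 12 genes with a start peak was 66.2%, with a range from 52.3% to 86.7%. Over all protein-coding genes these medians were 54.3% without a start peak and 66.3% with one. The median number of CpG dinucleotides was 17.5 for the collagen promoters without a start peak and 26.5 for those with one, against 7 and 27 over all protein-coding genes. Of the 20 without a start peak, 8 had fewer than 10 CpG, or 40%, against 59.6% of all promoters without one. They were those of COL4A5, COL4A6, COL6A3, COL9A1, COL10A1, COL17A1, COL21A1 and COL28A1. None of the 12 with a start peak had so few, against 7.52% of all promoters with one. At the other extreme, COL4A1, COL4A2, COL8A2 and COL15A1 each had 45 CpG dinucleotides and no start peak, whereas COL19A1 had 11 and a start peak with a fold of 30.6.

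**Figure D4:**
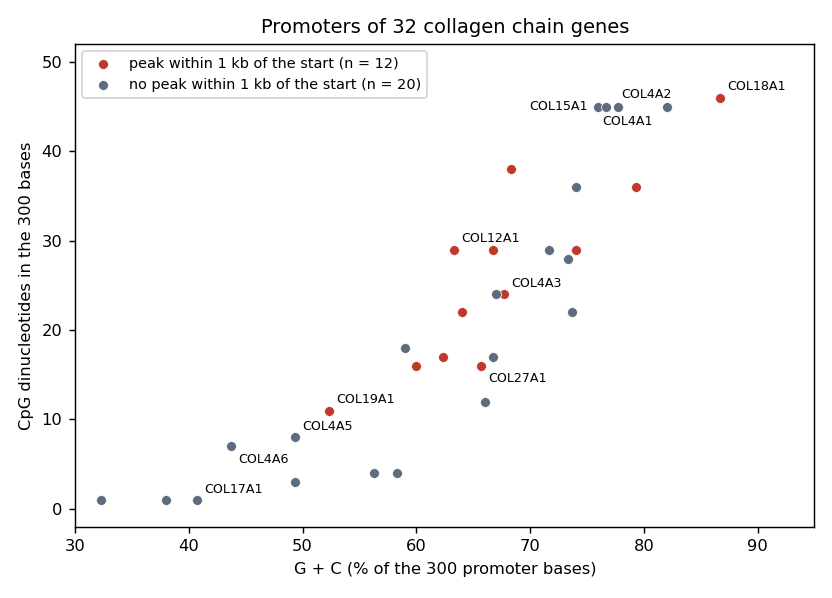
G + C content in percent against the number of CpG dinucleotides in the 300 promoter bases of the 32 collagen chain genes with a listed start, 1 point per gene, coloured by whether a Flag-ETV4 peak lay within 1 kb. The points without a start peak run from 1 to 45 CpG and those with one from 11 to 46, so that the lower left holds only genes without one, while COL4A1, COL4A2 and COL15A1 sit at the upper right with 45 CpG and no start peak, beside COL18A1 with 46 and a start peak.

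The genes whose products modify, secrete, cleave and cross-link collagen chains, and 2 collagen receptor kinases, were set beside the chains themselves. All 34 genes of that list had a peak within 10 kb, against 81.6% of all protein-coding genes, and 24 of the 27 with a listed start had one there, or 88.9%, against 64.4% of all protein-coding genes and 37.5% of the collagen genes. The list's genes had a median length of 39.3 kb. Of all protein-coding genes of 30 to 100 kb, 89% had a peak within 10 kb and 73.4% of those with a listed start had one there. A start peak with a fold of 10 or more was found at 21 of the 27, or 77.8%, against 47% of all protein-coding genes. The median of the start folds was 27.3, against 17.8. At 30 to 100 kb, 54.7% of all protein-coding genes with a listed start had a start peak with a fold of 10 or more. The median start fold in that bin was 18. The genes of the list were chosen with earlier results of these data known. The 13 genes of prolyl and lysyl hydroxylation, the step that makes the helix stable and ready for cross-links, included 11 with a listed start, and all 11 had a start peak with a fold of 10 or more.

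The highest start folds of the list were 72.9 at SERPINH1, which encodes the collagen chaperone HSP47, 54.0 at MIA3, which encodes the TANGO1 receptor that loads procollagen into carriers, and 50.1 at DDR1, a receptor kinase that binds collagen. The lowest were 3.61 at TLL2, a propeptide protease, 9.73 at COLGALT1, which glycosylates hydroxylysine, and 9.83 at LOX, the cross-linking lysyl oxidase. PCOLCE, LOXL4 and DDR2 had no start peak, and their strongest peaks within 10 kb had folds of 28.7, 37.2 and 20.2.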

How the data were processed

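Chromatin of 1 anti-Flag immunoprecipitate was compared by the authors with 1 input, and only the list of peaks from that comparison entered here. The submitters' processing notes name Bowtie2 2.4.1, SAMtools, MACS2 2.2.7.1, deepTools 3.5.0 and hg38, without roles or settings, and the handling of duplicate reads is not given in the sources used here. In the deposited list, each peak has a fold over the control as a linear ratio, a −log10 p-value and a −log10 q-value at the summit, the lowest −log10 q being 1.30. The display score that the authors deposited was not used. The input's own signal was not analysed here.

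Pileup and control level were solved from the fold, taken as pileup plus 1 over control plus 1, and the Poisson p-value. On simulated data, 100% of 19990 pileups were recovered. The simulation used the same formula, so it checked the solving step only and not whether the list follows that formula. Its values did not reach the highest pileup and control levels, those at ETV4. Gene spans came from RefSeq on GRCh38.p14. Starts and strands came from its promoter table (32 of 44 collagen genes), so the 5′ end was used for these only, and exons and introns were not analysed. A peak counted as near a gene within 10 kb of its span, as at an end within 1 kb, and as inside when it touched the span away from both ends and each start. Coordinates are 1-based.

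No test was run, because there was 1 library and no replicate. Every collagen gene is named. Other genes are named only where an end lay within 1 kb of a described summit or the gene overlapped such a peak, which was not done for every such gene, or among the 3 highest and 3 lowest start folds of the modifying list. The nearest peaks of genes with none, the genes of dense stretches, the members of that list without a start peak and the promoters named for their composition were picked once their values had been seen. The members and lists were chosen with earlier results of these data known. Alternatives covered summits in place of intervals, stricter fold and q, other windows and another basement membrane class. Scripts ran under Python 3.11.15 with scipy 1.17.1, pandas 2.3.3, numpy 2.4.6 and, for figures, matplotlib 3.10.9.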

Additional observations from a re-analysis of the deposited data

How the results depend on the processing

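Of 62 alternatives to the collagen values, 58 stayed within 1.5 times the reported count or within the counting interval of the reported density. Some could not differ by their construction, such as a fold of 5 or more for the genes with a fold of 10 or more. The values over all protein-coding genes were not recomputed under the alternatives. With −log10 q of 10 or more, the distinct collagen peaks numbered 95 in place of 153, and the peaks inside collagen genes per 100 kb were 1.12 in place of 1.84. With a fold of 5 or more the latter were 1.44. With types VII, XV and XVIII counted as basement membrane chains, 8 genes of that class in place of 5 had a peak within 10 kb. The number of collagen genes with a start peak ranged from 8 to 12 over its alternatives, that with a peak at either end from 12 to 22 and that with a peak inside from 29 to 32. The alternatives for either end and for inside were chosen after seeing the data. The low pileups limit the weakest peaks, since a pileup of 10 has an interval from 4.80 to 18.4. No paired analysis was possible because there was 1 immunoprecipitate and 1 input, and no result came from a test.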

Other observations

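Several collagen genes host a microRNA inside their span. The peak nearest to MIR936 in COL17A1 lay 1.29 kb away with a fold of 5.57, that nearest to MIR3606 in COL3A1 lay 6.38 kb away with a fold of 7.81, and that nearest to MIR455 in COL27A1 lay 11.8 kb away with a fold of 7.52. The other hosted microRNAs, MIR1245A in COL3A1, MIR3129 in COL5A2, MIR8073 in COL4A2, MIR711 in COL7A1 and MIR6815 in COL18A1, lay between 15.5 and 131 kb from the nearest peak.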
